A study of Mus musculus with 2 samples.

Results

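The comparison is of liver with heart endothelial cells (ECs) of control mouse pups, 308 cells in all, of which 54 carried the hashtag of control liver (HTO303) and 254 that of control heart (HTO306). They were taken from 7704 cells of any hashtag, or none, that passed the same limits on quality and on Cdh5, the gene for VE-cadherin. Passing cells had between 2000 and 75000 UMIs (unique molecular identifiers, counted molecules), more than 500 genes detected, mitochondrial and haemoglobin shares each below 5%, and a natural log of 1 plus 10000 times the Cdh5 share above 0.9. A cell was given to a group when its hashtag had at least 25 UMIs and each of the 5 other assigned hashtags was below its own minimum, which was 140 UMIs for the hashtag of iSuRe-Cre liver and 25 for the rest. The lowest Cdh5 value kept was 1.00 in liver and 0.95 in heart, and the highest left out was 0.823 and 0.758.

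The study tested mouse alleles, iSuRe-Cre and iSuRe-HadCre, that report recombination with a membrane Tomato and express Cre from the same allele, lastingly in iSuRe-Cre and for a limited time in iSuRe-HadCre. Liver and heart cells of control, Cdh5-CreERT2 + iSuRe-Cre and Cdh5-CreERT2 + iSuRe-HadCre C57BL/6 pups were hashtagged and loaded as 1 10x Genomics library. Each pup was given 4-hydroxytamoxifen (4-OHT, 40 mg/kg) on postnatal day 3 and was processed 3 days later, at the age labelled P6-P7, and cells were sorted as CD31+ and MbTomato+. Cdh5-CreERT2 restricts the inducible Cre to the endothelium. The control pups' own genotype is not given in the labels, and the library as a whole is labelled Cdh5-CreERT2 + iHadSuRe-Cre. Each group is 1 sample from an unstated number of pups. There is therefore no replicate check, and all intervals below are exact 95% intervals that cover counting error only.

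ECs take on the features of the organ they line. In the liver, most of the capillary bed consists of sinusoids, whose ECs are fenestrated and take up waste molecules from blood, and ECs near the central vein secrete Wnt ligands and R-spondin that set the zones of the surrounding hepatocytes. In the heart, the capillaries feed a muscle that burns mainly fatty acids, and their ECs are known for lipid uptake and for the transcription factors Meox2 and Tcf15.

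The 54 liver cells held 624048 UMIs (lowest 2252, median 7980, highest 55581 per cell) and the 254 heart cells 3030031 (lowest 2084, median 9100, highest 50428). One liver cell carried 8.91% of all liver UMIs. Levels are given as CPM, the UMIs of a gene per 1000000 UMIs of its group. A single UMI was worth 1.6 CPM in liver and 0.33 CPM in heart, so low values are less certain in liver. Before the Cdh5 limit there were 79 liver and 265 heart cells, so 68.4% and 95.8% of the tagged cells passed it. The cells of both groups had been chosen on Cdh5. The other 13 pan-endothelial genes, such as Pecam1, Tek and Erg, summed to 5195 CPM in liver and 5251 CPM in heart (liver over heart 0.989, interval 0.952 to 1.03), and each was within 2-fold between the organs. Notch1, a Notch receptor, was at 160 CPM in control liver and 138 CPM in control heart, against 12.6 to 30.7 CPM in the iSuRe groups. From single-cell RNA of liver and heart ECs, the paper reports strong Notch1 deletion in cells with either iSuRe allele. Control and iSuRe groups therefore differed in Notch1. Whether they also differed in the reporter allele is not known, as the control genotype is not given. WPRE, a transgene element that the paper used to select Tomato+ cells, was above 0.5 on the scale used for Cdh5 in 40 control liver and 228 control heart cells. Hashtags assigned to no group (HTO304 or HTO308) had 25 or more UMIs in 7 liver and 13 heart cells, and a CMO tag had 100 or more in 8 and 33 cells.

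The liver label was checked against sinusoidal markers, and most of them were low. Stab2, a scavenger receptor that defines sinusoidal ECs, was at 30.4 CPM (interval 18.3 to 47.5, 12 of 54 cells with a UMI) in control liver and 9.9 CPM in control heart. In iSuRe-Cre liver of the same library it was at 1446 CPM and in iSuRe-HadCre liver at 387 CPM. Dnase1l3, a secreted nuclease, had 0 UMIs in control liver, which allows up to 4.81 CPM (3 counts), against 393 CPM in iSuRe-Cre liver. Mrc1, the mannose receptor, was at 24 CPM against 646 CPM, and the hyaluronan receptor Lyve1 at 73.7 CPM against 375 CPM. The 20 genes of the sinusoidal list summed to 1070 CPM in control liver and 539 CPM in control heart. In iSuRe-Cre liver they summed to 6345 CPM and in iSuRe-HadCre liver to 1720 CPM, so the latter lay far nearer to control liver. Ehd3, also on the list, was at 149 CPM in control, 304 CPM in iSuRe-Cre and 93.7 CPM in iSuRe-HadCre liver. Under the other ways of choosing cells Stab2 stayed between 20.5 and 78.8 CPM in control liver. The cells under the control liver hashtag were therefore ECs low in sinusoidal genes, and what follows describes these cells and not the liver endothelium as a whole. Why they were low, and whether the sort or the hashtags had a part in it, was not tested.

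**Figure D1:**
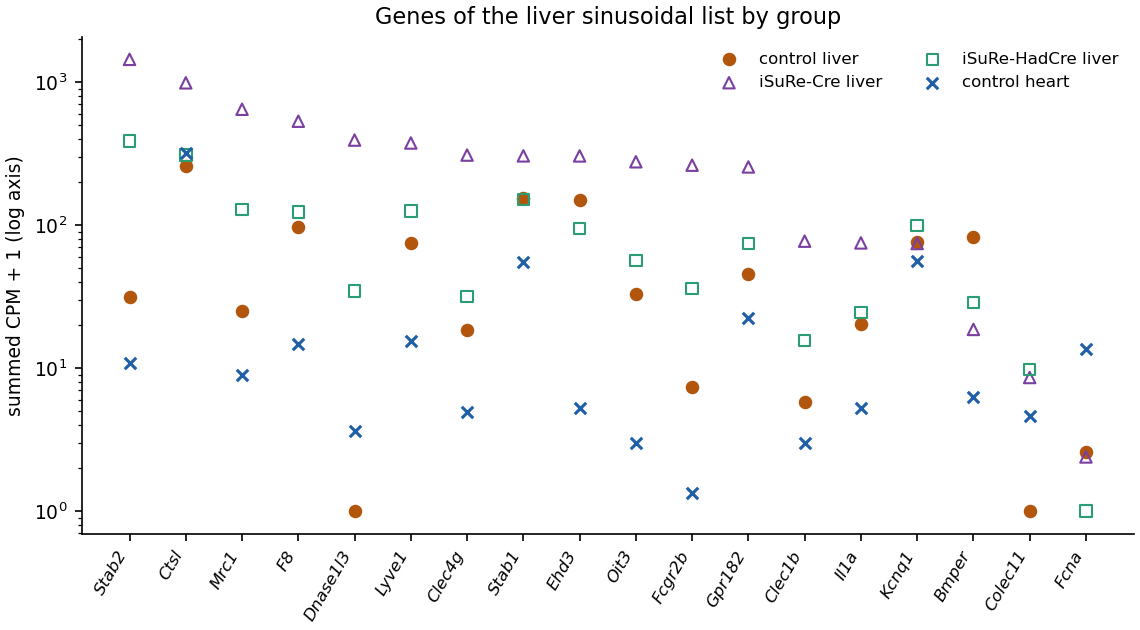
Summed CPM plus 1 (log axis) of the 18 genes of the sinusoidal list with a UMI in control liver or control heart, in the 3 liver groups and in control heart. Each symbol is the sum over 1 group, with no replicates. Control liver lies below both iSuRe livers for Stab2, Mrc1, Dnase1l3, Lyve1 and Fcgr2b, and above control heart for Ehd3, F8 and Lyve1.

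Of the genes measured, 4015 had a mean of at least 50 CPM over both groups, and their levels were compared as log2 of liver over heart with 10 CPM added to each. The median over these genes was 0.07. In liver 57 genes (1.42%) were 4-fold or more higher, and in heart 9 genes (0.224%). Of the 57, 23 rested on few cells, meaning that fewer than 8 cells had a UMI or that a single cell gave more than 25% of the UMIs. Gzma, a cytotoxic granule protease, was the clearest such case, with all of its liver UMIs (513 CPM) in 1 cell. None of the 9 genes higher in heart rested on few cells. The counts depended on how cells were assigned. With the HTODemux classification of hashtags, which gave 542 liver and 396 heart cells, 13 genes were 4-fold or more higher in liver and 12 in heart, and with a hashtag minimum of 10 UMIs 31 and 7 were. Only 7 of the 57 liver genes and 7 of the 9 heart genes were also past 4-fold with HTODemux. The 24 genes named by rule kept their direction in each of the 21 settings tried. At 2-fold there were 181 genes (4.51%) higher in liver and 73 (1.82%) higher in heart, and 3761 lay in between.

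**Figure D2:**
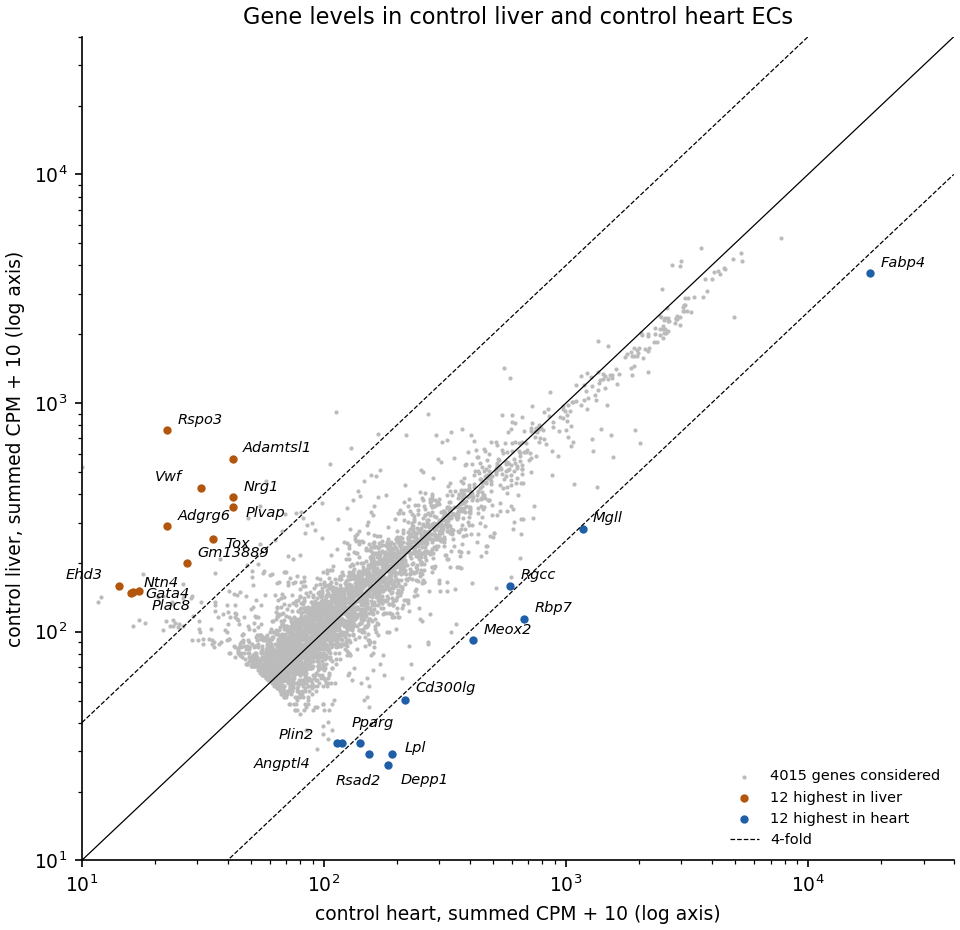
Level of each of the 4015 genes in control heart (horizontal) and control liver (vertical), as summed CPM plus 10 on log axes. The 12 genes highest and the 12 lowest in liver over heart that did not rest on few cells are coloured, and dashed lines mark 4-fold. Rspo3 lies farthest above the diagonal of the coloured genes, and Fabp4 is the most abundant of those below it.

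The genes highest in liver included ligands of the Wnt pathway. Rspo3, an R-spondin that strengthens Wnt signalling at the receptor, was at 749.9 CPM in liver (468 UMIs in 15 of 54 cells) and 12.5 CPM in heart (38 UMIs in 17 of 254 cells). The liver value was 59.8 times the heart value (interval 42.9 to 85.6, log2 5.08), and with HTODemux the log2 was 2.58. Rspo3 lies on the minus strand at chr10:29452416-29535867 of GRCm38. It had the largest difference of the 24 genes named by rule. Within the liver cells it ran from 0 to 106 UMIs per 10000, with a median of 0, so that a minority of the cells carried it.

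Wnt2, a Wnt ligand made by hepatic ECs, was at 96.1 CPM in liver and 6.27 CPM in heart, 15.3 times higher (interval 9.02 to 27.2, log2 2.71). Wnt9b, a second such ligand, had 29 UMIs in 8 liver cells and 1 UMI in 1 heart cell. Both were thus on the side of Rspo3. Other liver signals lay nearer to the heart level or below it. Bmp2, which tells hepatocytes to make the iron hormone hepcidin, was at 32 CPM in liver and 18.8 CPM in heart, and its ratio of 1.7 had an interval of 0.969 to 2.88. Hgf, hepatocyte growth factor, had 1 UMI in liver (1.6 CPM) and 5 in heart, where each UMI was worth 0.33 CPM. Bmp6, a BMP ligand that also acts on hepcidin, was at 46.5 CPM in liver and 79.5 CPM in heart. In the list of 15 liver angiocrine signals and regulators, 10 passed the limit on level, 4 of them 4-fold or more higher in liver (1.42% of all genes) and none 4-fold or more higher in heart. Their log2 was above 0 for 8 and below 0 for 2, Bmp6 and the transcription factor Tcf4, and the median log2 over all 15 was 1.21. The limit is on the mean of both groups, and Rspo3, Wnt2 and Gata4 passed it through their liver level alone. Rspo3 and Gata4 had also been named by rule for their high ratio. The count of 4 was therefore shaped in part by the limit and is not separate evidence, while the median over all 15 does not rest on the limit.

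The same list holds transcription factors, of which most were higher in liver. Gata4, which directs the sinusoidal fate in liver and also acts in the heart muscle and endocardium, was at 139 CPM in liver (26 of 54 cells) and 6.27 CPM in heart (11 of 254 cells), 22.2 times higher in liver (interval 13.4 to 38.7, log2 3.20, or 1.44 with HTODemux). Meis2, a TALE homeobox factor, was at 722.7 CPM in liver and 157 CPM in heart (4.61 times, interval 4.04 to 5.26). Maf, a factor known from sinusoidal ECs, was at 109 CPM against 28.4 CPM (3.84 times, interval 2.75 to 5.34). Nr2f2, which specifies venous ECs, was at 383 CPM against 131 CPM (2.92 times, interval 2.48 to 3.44). These 4 factors were all higher in liver, by amounts beyond counting error. Tcf4, a widely expressed E-protein, lay the other way, at 1316 CPM in liver and 1873 CPM in heart. Over a list of 11 cardiac lineage factors, which also holds Gata4, the median log2 was 0.07. Hoxa5, one of the HOX genes that mark position along the body, had 49 UMIs in 22 liver cells and 20 UMIs in 17 heart cells, and was 11.9 times higher (interval 6.94 to 21.1), though under the limit on level. Of the 16 positional homeobox genes, 15 had a log2 above 0 or were at 0, Hoxd3 being at −0.05 with 1 UMI in all. Only 3 of the 16 passed the limit on level, and 41.8% of all genes that passed it lay below 0.

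Among the remaining high liver genes were several that act at the vessel surface. Vwf, the clotting factor that ECs of larger vessels store, was at 417 CPM in liver and 21.1 CPM in heart (19.7 times, interval 15 to 26.4). It was found in 38 of 54 liver cells (70.4%, interval 56.4 to 82) and in 27 of 254 heart cells (10.6%, interval 7.12 to 15.1). After thinning each cell to 2000 UMIs the shares were 47.6% and 2.9%. Plvap, which forms the diaphragms of fenestrae and caveolae, was at 341 CPM against 32 CPM (10.7 times, interval 8.35 to 13.7) and was found in 40 liver and 27 heart cells. Selp, the adhesion receptor P-selectin, had 82 UMIs in liver and 6 in heart, but 1 liver cell gave 42.7% of its UMIs. Ehd3, an endocytic protein known from sinusoidal ECs, was at 149 CPM against 4.29 CPM (34.7 times, interval 19.4 to 67.7). With HTODemux the log2 of Vwf was 2.07, that of Plvap 1.78 and that of Ehd3 1.84, against 3.78, 3.06 and 3.48.

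Adamtsl1, a matrix protein, was at 560.9 CPM in liver and 32 CPM in heart, in 15 and 21 cells. Adgrg6, an adhesion G protein-coupled receptor, was at 279 CPM against 12.5 CPM, in 21 and 11 cells. Nrg1, a ligand of ErbB receptors, was at 377 CPM in 19 liver cells and 32 CPM in 10 heart cells, where 1 cell gave 55.7% of the UMIs. Ntn4, a netrin found in basement membranes, was at 138 CPM against 5.94 CPM (log2 3.21, or 1.21 with HTODemux). The rest of the 12 highest were Plac8 (141 CPM against 7.26 CPM), the little studied gene Gm13889 (189 against 17.2 CPM) and Tox, a nuclear HMG-box factor (244 against 24.8 CPM). Edn1, the vasoconstrictor endothelin-1, was 6.75 times higher in liver (interval 4.99 to 9.16).

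Of the 9 genes 4-fold or more higher in heart, 5 were on the list of fatty acid handling genes, and Depp1, Rbp7, Rsad2 and Cd300lg were not. That list held 11 of the 4015 genes considered. Lpl and Pparg, 2 of the 5, passed the limit on level through their heart level alone. The lists had been chosen with earlier results of these data known, so the count of 5 is not separate evidence. Fabp4, a fatty acid carrier of capillary ECs, had a median of 199 UMIs per 10000 over heart cells (highest 728) and 25.7 over liver cells (highest 439). It was summed to 18100.1 CPM in heart and 3703 CPM in liver, 4.89 times higher in heart (interval 4.69 to 5.1). Fabp4 lies on the minus strand at chr3:10204088-10208576. It was found in 253 of 254 heart and 49 of 54 liver cells, so the groups overlapped in detection and differed in level.

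Lpl, the lipase that frees fatty acids from lipoproteins, was at 181 CPM in heart and 19.2 CPM in liver (9.42 times, interval 5.35 to 18.3). Its anchor on the capillary wall, Gpihbp1, was at 1074 CPM in heart and 433 CPM in liver (2.48 times, interval 2.19 to 2.82). Cd36, a fatty acid transporter, was 3.06 times higher in heart (interval 2.77 to 3.39) and the carrier Fabp5 2.54 times (interval 2.32 to 2.8). The lipase, its anchor and the carriers thus lay on the heart side, with Lpl the farthest. Pparg, the lipid-sensing nuclear receptor, was at 131 CPM against 22.4 CPM, its target Angptl4, an inhibitor of lipoprotein lipase, at 108 CPM against 22.4 CPM, and Mgll, which splits monoglycerides, at 1162 CPM against 272 CPM. Plin2, a coat protein of lipid droplets, was at 103 CPM against 22.4 CPM (log2 −1.80, or −0.61 with HTODemux). All 11 fatty acid handling genes that passed the limit on level were at least 2-fold higher in heart (1.82% of all genes), and the median log2 over all 17 listed was −1.60. The limit is on the mean of both groups, and Lpl, Pparg, Angptl4 and Plin2 passed it through their heart level alone. The count of 11 was therefore shaped in part by the limit, while the median over all 17 was not. The other 6 listed genes were under the limit on level, where the added 10 CPM draws the log2 toward 0. Of these, the acyl-CoA synthetase Acsl1 was at −0.63, Dgat1 at −0.34, Pnpla2 at −0.33 and Slc27a4 at −0.19 on the log2 scale. Acsl5 and Slc27a3 lay the other way, at 0.45 and 1.01.

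Meox2, a homeobox factor that acts with Tcf15 on fatty acid transport in heart ECs, was at 404 CPM in heart (197 of 254 cells) and 81.7 CPM in liver (13 of 54 cells), 4.94 times higher in heart (interval 3.74 to 6.68). Tcf15 was 3.48 times higher in heart (interval 2.69 to 4.58) and Meox1, the paralogue of Meox2, 3.9 times (interval 2.56 to 6.21). Rbp7, a retinol-binding protein of capillary ECs, was at 663 CPM against 104 CPM, Car4, a carbonic anhydrase on the cell surface, at 219 CPM against 62.5 CPM, and Cd300lg, a mucin-like receptor of capillaries, at 207 CPM against 40.1 CPM. Depp1, which responds to FOXO factors, had the largest ratio on the heart side (10.8 times, interval 5.84 to 22.7), and Rgcc, a regulator of the cell cycle, was 3.87 times higher (interval 3.14 to 4.82). Rsad2, an interferon-induced antiviral enzyme, was at 143 CPM against 19.2 CPM (log2 −2.39, or −0.98 with HTODemux). Of the heart capillary list, Aqp1, a water channel, was the exception among the 17 genes that passed the limit on level, at 252 CPM in liver and 124 CPM in heart. Among all genes considered, 41.8% had a log2 below 0. Members such as Lpl passed the limit through their heart level alone, and Lpl and Fabp4 had been named by rule. The count for this list was therefore shaped in part by the limit and is not separate evidence. The median log2 over all 20 listed genes, −1.68, does not rest on the limit.

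In single cells the capillary list was higher in most heart cells than in most liver cells. Without Fabp4, its genes took a median of 105 UMIs per 10000 in heart cells (7.65 to 251) and 19.6 in liver cells (0 to 164). Of the 54 liver cells, 40 lay below the 10th percentile of the heart cells, while 4 lay at or above the heart median. The angiocrine list was spread differently. Its median was 32.5 UMIs per 10000 in liver and 23.9 in heart, and its highest values were 152 and 103, so the organs overlapped for most cells and part of the liver cells lay above the rest. The endocardium list had a median of 17.2 in liver and 4.02 in heart. Of its 17 genes, 7 passed the limit on level. Those at least 2-fold higher in liver were Vwf, Nrg1, Plvap, Tmem100 and Npr3 (4.51% of all genes). Adamts1 was 2-fold higher in heart (1.82% of all genes). Vwf, Nrg1 and Plvap passed the limit through their liver level alone and had been named by rule for their high ratio. The count and the medians over cells are therefore not separate evidence. The median log2 over all 17 was 0.76. Gata5, Hand2 and Tbx20, transcription factors of the endocardial lineage, had 1, 13 and 10 UMIs in liver and 3, 59 and 10 in heart. A UMI was worth 1.6 CPM in liver and 0.33 CPM in heart, so equal counts, as for Tbx20, mean a higher level in liver.

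**Figure D3:**
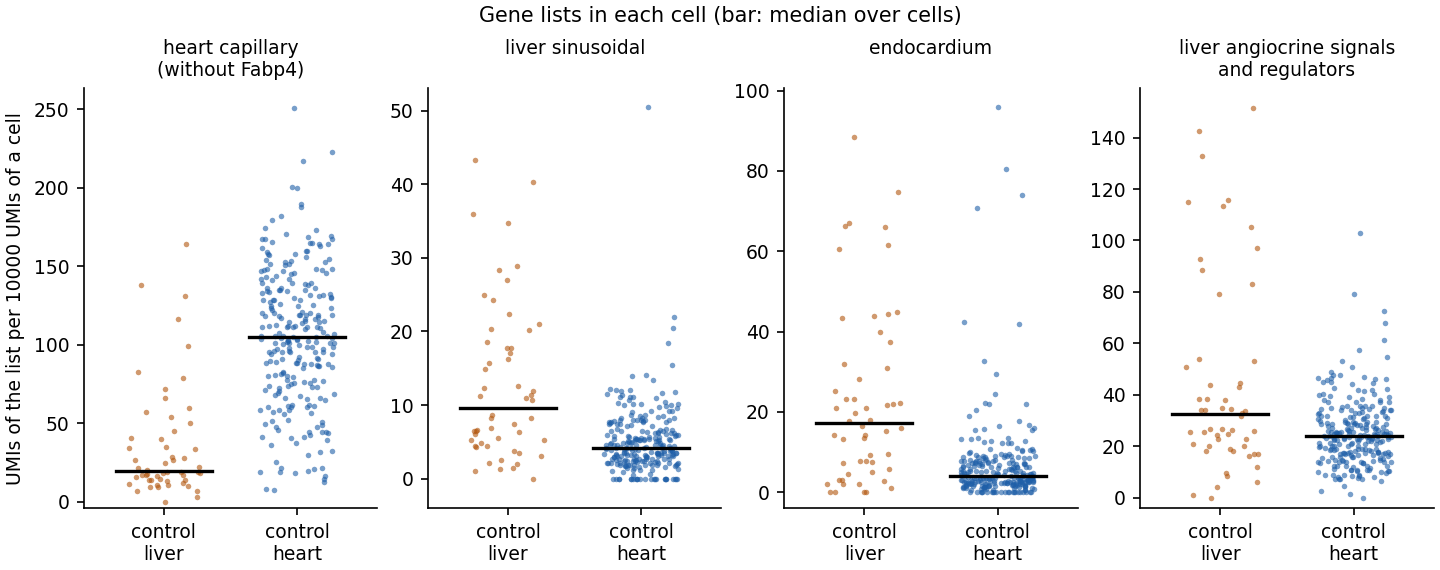
UMIs of 4 gene lists per 10000 UMIs of each cell, for the 54 control liver and 254 control heart cells, with a bar at the median over cells. The heart cells lie mostly above the liver cells for the capillary list, with medians of 105 and 19.6, and part of the liver cells stand above both medians for the angiocrine list.

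The liver cells were not of one kind. Rspo3 and Wnt2 were found in 15 and 14 of the 54 cells, and 13 cells had both. Of the 15 Rspo3 cells, 13 had Adamtsl1, 14 had Ehd3, 14 had Gata4 and all 15 had Vwf. Gja5, the connexin 40 gap junction gene of arterial ECs, was found in 17 cells and Adgrg6 in 21, with 14 cells in both. Only 2 of the Rspo3 cells had Gja5 and 2 had Meox2. Nrg1 and Npr3, the clearance receptor for natriuretic peptides, were each found in 19 cells, 15 of them in common. Meox2 was found in 13 cells, and 12 of these had Tcf15.

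Taken by these markers, 8 cells had Rspo3 with neither Gja5, Adgrg6 nor Meox2, 15 had Gja5 or Adgrg6 with neither Rspo3 nor Meox2, and 7 had Meox2 alone of these. None of the 4 genes was found in 13 cells. More than 1 of the 3 kinds was found in 11 cells, whose median was 18455 UMIs against 7980 over all liver cells, so depth moved with this overlap, and whether these were doublets was not tested. In heart, where Rspo3 was found in 17 cells, 4 of these had Wnt2 and 11 had Meox2. The marker pairs were chosen after their values were seen, and detection in a cell depends on its depth.

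**Figure D4:**
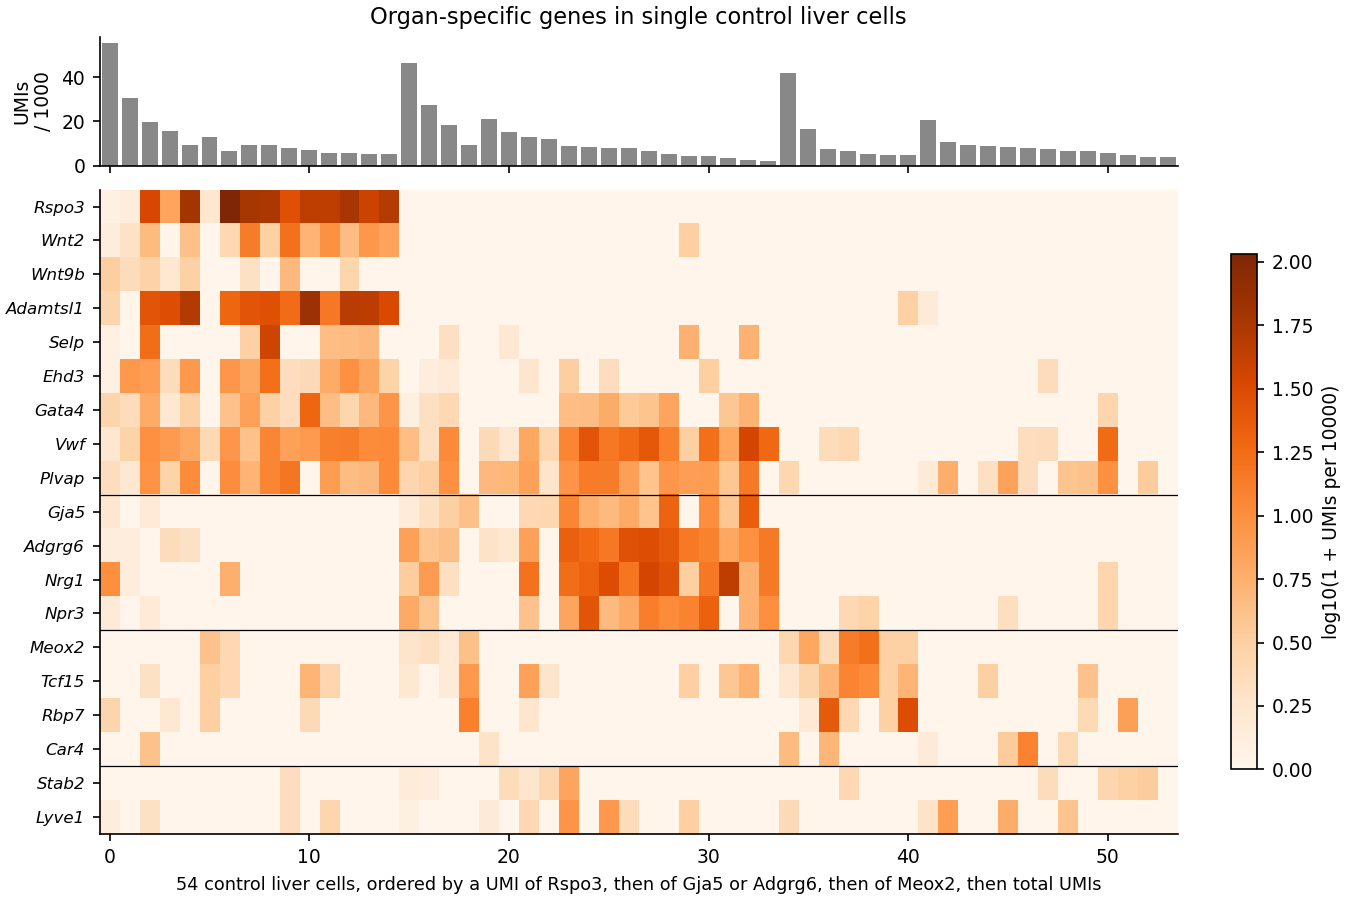
UMIs per 10000, as log10 of 1 plus the value, of 19 genes in each of the 54 control liver cells, with the total UMIs of each cell as bars above, divided by 1000. Cells are ordered by a UMI of Rspo3, then of Gja5 or Adgrg6, then of Meox2, then by depth. The first 15 cells carry Rspo3, 13 of them with Wnt2 and 13 with Adamtsl1, most of the next 19 carry Adgrg6, and Stab2 is scattered.

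Arterial genes lay on both sides. Gja5 was at 101 CPM in liver and 20.5 CPM in heart (4.93 times, interval 3.42 to 7.12), and Fbln5, an elastic fibre protein, was 3.05 times higher (interval 2.41 to 3.84). Efnb2 and Sox17, arterial genes as well, had log2 values of −0.35 and −0.34. Of the 10 arterial genes that passed the limit on level, 7 had a log2 above 0 and 3 below, while 41.8% of all genes considered lay below 0. The venous and large-vessel counts that follow are to be read against the same share. Of the 7 venous genes that passed, 5 lay above 0 and 4 were 2-fold or more higher in liver (4.51% of all genes), among them Vwf, Selp and Nr2f2, while Aplnr, the apelin receptor, had a log2 of −0.69. Of the 9 large-vessel genes that passed, 6 lay above 0 and 3 below. Fbln2, a fibulin of the matrix, was at 713 CPM against 208 CPM and Bgn, biglycan, at 187 CPM against 43.2 CPM, while fibronectin (Fn1) had a log2 of −1.21.

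Among all genes considered, 93.7% lay within 2-fold, and the counts for common signalling pathways are to be read against that share. None of the 7 Notch pathway genes above the limit on level was past 2-fold, and their log2 values ran from −0.39 for Hes1 or Mfng to 0.68 for the ligand Jag1. None of the 7 VEGF and Tie genes was past 2-fold either, with the receptor Kdr at 0.31 and Vegfc at 0.89. Of 13 BMP and TGF-beta genes, Bmpr2 was 2-fold higher in liver (1.13) and the target Id1 2-fold higher in heart (−1.06). None of the 9 cell cycle genes was past 2-fold, and Mki67 was found in 14 of 54 liver and 44 of 254 heart cells. Of the matrix and basement membrane list, 11 of 12 genes had a log2 below 0, as did 41.8% of all genes. Sparcl1 was 3.2 times higher in heart (interval 2.82 to 3.64), Sparc had a log2 of −1.05, and elastin (Eln) was the exception at 1.14, with 56.2% of its heart UMIs in 1 cell. Cav1, which builds caveolae, was at 1548 CPM in heart and 569 CPM in liver. All 9 interferon and MHC class I genes had a log2 below 0, though H2-K1 was at −0.00, with a median of −0.15 and Ifitm3 the lowest at −1.09.

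The 24 genes named by rule were then read in the iSuRe pups, whose cells share the library but not the hashtags. In iSuRe-Cre pups (858 liver and 435 heart cells) 11 of the 12 highest genes were on the liver side, 7 of them 4-fold or more, and all 12 lowest were on the heart side, 5 of them 4-fold or more. In iSuRe-HadCre pups (76 and 311 cells) 12 of 12 and 12 of 12 kept their side, with 10 and 1 past 4-fold. Over all 4015 genes the shares on the liver side were 53.2% and 47.9%, and the shares 4-fold or more higher in liver were 0.971% and 0.672%, and 4-fold or more higher in heart 0.548% and 0.0996%. Rspo3 was at 671 and 8.31 CPM in iSuRe-Cre liver and heart (log2 5.22), and at 641 and 16.1 CPM in iSuRe-HadCre (log2 4.64). Meox2 had log2 values of −2.77 and −1.98. Plin2, at −1.80 in controls, was at −0.28 in iSuRe-Cre and −0.61 in iSuRe-HadCre pups. Pparg, at −2.12 in controls, was at −0.60 and −1.38, and Fabp4, at −2.29, was at −1.95 and −1.09. These 3 lipid genes were picked with their values known, and the differences between genotypes were not tested. Genotype, the Notch1 loss of the iSuRe groups and hashtag cannot be told apart in these groups.

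**Figure D5:**
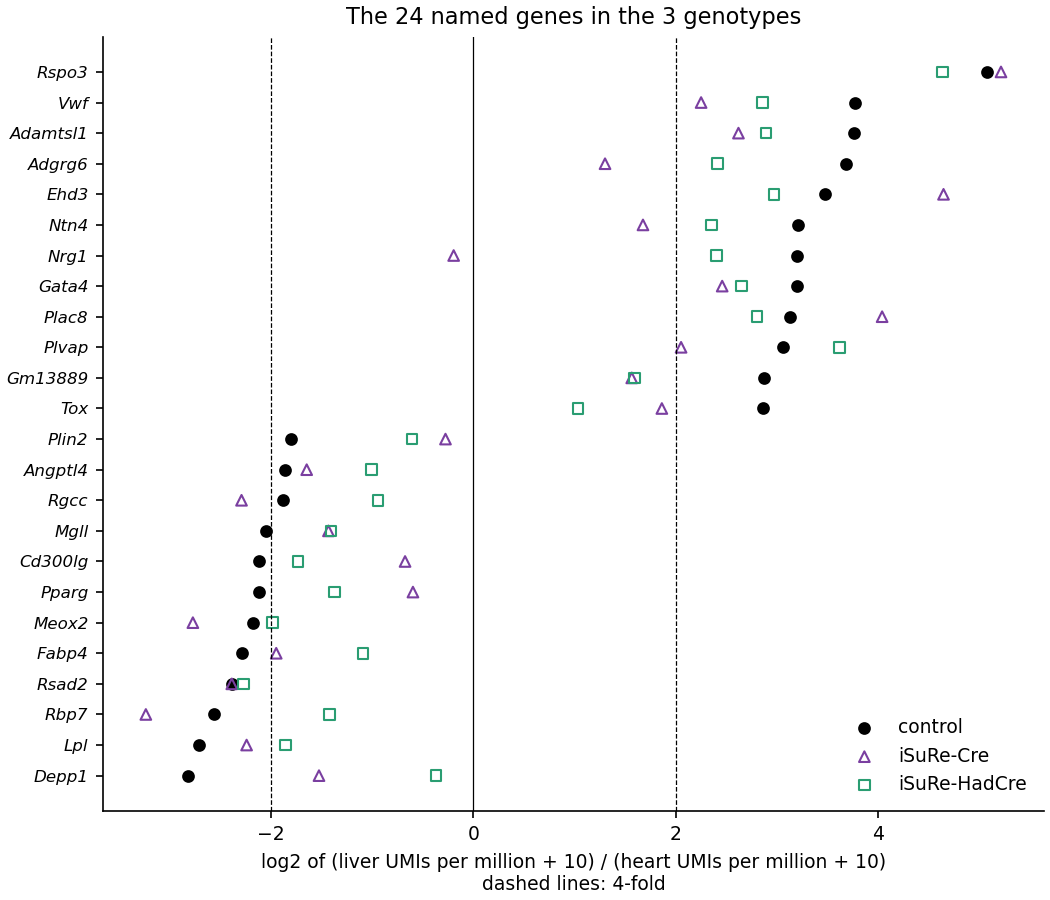
Log2 of liver over heart, with 10 CPM added, for the 24 genes named by rule in control, iSuRe-Cre and iSuRe-HadCre pups. Each symbol is 1 liver group over 1 heart group, and dashed lines mark 4-fold. All but Nrg1 in iSuRe-Cre pups (−0.19) lie on the same side of 0 in the 3 genotypes.

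Markers of other cells were present at differing levels. The 12 hepatocyte genes summed to 122 CPM in liver and 151 CPM in heart, against 6103 CPM in the free RNA of the library, taken from barcodes of 10 to 100 UMIs. The 12 cardiomyocyte genes summed to 80.1 and 108 CPM, and 1 liver cell gave 62% of the former. The neutrophil genes summed to 596 CPM in liver and 170 CPM in heart, and 1 liver cell gave 79% of the former. The 6 lymphocyte genes were at 111 and 5.28 CPM, with 79.7% from 1 liver cell, and the 10 macrophage genes at 20.8 and 110 CPM. The 9 fibroblast and stellate genes were at 763 CPM in liver (23 cells, 36.3% of the UMIs from 1 of them) and 425 CPM in heart (81 cells). The 7 neural genes were at 458 CPM (26 cells, 23.1% from 1 of them) and 183 CPM (102 cells). The erythroid genes, most of them haemoglobins, summed to 2011 CPM in liver and 1487 CPM in heart, with UMIs in all cells of both groups, and to 56916 CPM in the free RNA. The part of these cells' RNA in the differences between the organs was not tested other than by subtracting free RNA. The free RNA held Fabp4 at 2753 CPM, Meox2 at 67 CPM and Lpl at 48.8 CPM, next to 3703, 81.7 and 19.2 CPM in liver cells. With free RNA subtracted, at 14.4% of liver UMIs by cardiomyocyte genes and 2.48% of heart UMIs by hepatocyte genes, Fabp4 had a log2 of −2.27, Meox2 one of −2.18 and Rspo3 5.35. The 14.4% rests on 50 cardiomyocyte UMIs in liver and takes all of them as free RNA. The hepatocyte and erythroid sums, set against free RNA, would give a smaller liver share.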

How the data were processed

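Alignment and counting were done by the authors in Cell Ranger 7.1.0, on a GRCm38 reference that includes the transgenes. The matrix they deposited is not filtered for cells and holds raw UMI counts for 21951 gene features, with the hashtags in the same table. The labels assign 6 hashtags to 6 groups.

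Counts were summed per group and given as CPM. Since each group is 1 sample, no test was run. Intervals are exact Poisson (sums), binomial (shares) and conditional (ratios) 95% intervals. Named genes are the 12 highest and 12 lowest log2 ratios among genes with a mean of at least 50 CPM, a UMI in at least 8 cells of the higher group and at most 25% of UMIs there from 1 cell, together with the members of 33 gene lists. Gzma, Dcc, Kcnip4 and Wnt4 fall outside this rule and were picked with their values known. Members and lists were chosen with earlier results of these data known. Cells positive for a second assigned hashtag were left out (20 liver, 52 heart), and no doublet caller was used. Where 2 gene IDs share a symbol (Nrg1), the ID with more UMIs was used. Alternatives covered the hashtag rule (HTODemux of Seurat 5.3.0 included), the cell limits, scaling, the CPM added and free RNA. Gene positions come from GENCODE vM21. Scripts were tested on simulated data. Computation used scipy 1.17.1 under Python 3.11.15, and R 4.3.3 for HTODemux.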

Additional observations from a re-analysis of the deposited data

Results flagged for a closer look

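Of the 57 genes that were 4-fold or more higher in control liver, 50 were on the liver side in iSuRe-Cre pups and 50 in iSuRe-HadCre pups. Of all genes considered, 53.2% and 47.9% were. Each genotype has 1 liver and 1 heart group, so differences between genotypes were not tested. Of the genes on the heart side, those described in the text or held by a gene list are given here, Kcnip4 and Wnt4 having been picked with their values known. Nrg1 had a log2 of 3.20 in control and −0.19 in iSuRe-Cre pups. Tmem100, a membrane protein of vascular ECs, lay at −0.29 in iSuRe-Cre pups and at −0.10 in iSuRe-HadCre pups against 2.02 in control pups, and 33.9% of its control liver UMIs came from 1 cell. Wnt4, whose control liver UMIs came from 4 cells, had a log2 of −0.19 in iSuRe-Cre and −0.67 in iSuRe-HadCre pups against 3.16 in control. Kcnip4, also seen in 4 control liver cells, was at −0.26 in iSuRe-HadCre pups against 3.53. S100a9, a neutrophil gene with 80% of its control liver UMIs in 1 cell, was at −0.60 in iSuRe-HadCre pups against 2.11.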

How the results depend on the processing

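Of the genes considered, 57 were 4-fold or more higher in liver and 9 in heart, and these counts moved by more than 1.5 times under several settings. The liver count was 31 with a hashtag minimum of 10 UMIs, 13 with HTODemux, 10 with 50 CPM added, 91 with a mean of at least 20 CPM and 10 with a mean of at least 200 CPM. The heart count was 4 when cells went to the hashtag highest relative to its minimum, 22 without the Cdh5 limit, 14 as a mean over cells, 16 at up to 20000 UMIs per cell, 2 with 50 CPM added and 4 with a mean of at least 200 CPM. Without cells that carried other tags, a setting chosen after seeing the data, the counts were 91 and 14. Apart from the settings' own construction, the cause was not tested. Over 21 settings and 167 genes, 7 values changed sign among genes that were 4-fold or more apart in the main setting. Sign changes of genes with smaller differences were not counted. With Cdh5 above 1.5 these were Tubb3 (−0.79), Dcc (−2.32) and Wnt4 (−0.44), at up to 20000 UMIs Kcnip4 (−0.073) and Wnt4 (−0.53), and without other tags Tubb3 (−0.12) and Kcnip4 (−0.12). Rspo3 ranged from 2.58 (HTODemux) to 6.21 and Fabp4 from −2.96 to −1.91. With 54 liver cells, genes of few UMIs are not resolved, and no replicate exists. No paired analysis was possible because each group is 1 sample.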
